A study of Mus musculus with 8 samples.

Results

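The 47 DNA replication genes examined here encode the proteins that license replication origins, unwind the double helix, copy both strands, supply deoxynucleotides, and restore DNA methylation on the new strand. They were chosen by gene symbol, with earlier results of these data known, from the 55450 genes of the deposited table, and all 47 were among the 21451 genes that passed the filter on low counts. RNA-sequencing was performed on thymic epithelial cells (TECs), the stromal cells that support and select developing T cells, sorted as CD45-EpCAM+ cells from embryonic day 17 (E17) mouse thymus. All embryos carried a tdTomato reporter knocked into Ccl21a, the gene for a chemokine that attracts thymocytes to the medulla, together with a Venus reporter of Tnfrsf11a, which encodes the receptor RANK, so no group is free of the reporters. The comparison asks how TECs that express CCL21 differ from TECs that express RANK in the embryonic medulla. It comprised 3 libraries of CCL21+RANK- TECs (tdTomato+Venus-), 3 libraries of CCL21-RANK+ TECs (tdTomato-Venus+), and 2 libraries of CCL21-RANK- TECs (tdTomato-Venus-). The study describes its replicates as biological, and the sources used here do not say whether the libraries came from single embryos or pools. The p-values measure the spread between these libraries. Library totals ranged from 42751858 to 71625319 counts.

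The labels were checked against markers of the sorted cells. Epcam was detected in every library at 49.5 to 156 RPKM (counts per kilobase of exon, scaled to the library total), and Foxn1, the transcription factor of TECs, at 50.7 to 105 RPKM. The 6 general TEC markers, led by the keratin gene Krt18, summed to 3850, 3851, and 4647 RPKM in CCL21+RANK- TECs. Their sums were 1430, 1419, and 1271 RPKM in CCL21-RANK+ and 4151 and 4502 RPKM in CCL21-RANK- TECs. General TEC markers were thus lowest in CCL21-RANK+ TECs. Tnfrsf11a was at 8.78, 9.44, and 10.3 RPKM in CCL21+RANK-, 111, 93.1, and 107 RPKM in CCL21-RANK+, and 2.62 and 2.26 RPKM in CCL21-RANK- TECs, and Ccl21a, whose level is uncertain because near-identical copies share its reads, was at 561, 346, and 305 RPKM in CCL21+RANK-, 152, 95.9, and 78.2 RPKM in CCL21-RANK+, and 6.89 and 8.88 RPKM in CCL21-RANK- TECs. The 7 cortical markers, led by the protease gene Prss16, summed to 1521, 1464, and 1701 RPKM in CCL21+RANK-, 112.8, 170.3, and 104.2 RPKM in CCL21-RANK+, and 1533 and 1617 RPKM in CCL21-RANK- TECs. The 7 medullary markers, led by the keratin gene Krt5, summed to 1679, 1353, and 1229 RPKM in CCL21+RANK-, 962, 989, and 804 RPKM in CCL21-RANK+, and 177.3 and 141.5 RPKM in CCL21-RANK- TECs. Within this sum the members differed. Mean Aire, Fezf2, and Cd80 were 113, 84.0, and 8.91 RPKM in CCL21-RANK+ TECs. They were 0.747, 0.191, and 0.0495 RPKM in CCL21+RANK- and 0.465, 0.288, and 0.0452 RPKM in CCL21-RANK- TECs. Cortical markers were thus at like levels in CCL21+RANK- and CCL21-RANK- TECs and low in CCL21-RANK+ TECs. The medullary sum was low in CCL21-RANK- TECs, whereas Aire, Fezf2, and Cd80 were low in CCL21+RANK- TECs as well.

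DNA replication begins when the origin recognition complex, with CDC6 and CDT1, loads the MCM2-7 helicase onto origins, a step restrained by geminin after S phase has begun. CDC45 and the GINS proteins then activate the helicase, primase and DNA polymerase alpha lay down primers, and polymerases delta and epsilon extend them on the PCNA clamp. Transcription of many of these genes is driven by E2F factors at the passage from G1 to S phase, so their transcripts are widely used as a sign of proliferating cells, and proliferation is one of the features by which TEC populations differ during thymus growth.

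Because E2F control is the textbook feature these genes share, their promoters were searched for the E2F words TTTCCCGC, TTTGGCGC, TTTCGCGC, and TTTGCCGC on both strands. RefSeq promoters of the GRCm38.p6 build, which span 250 bases before to 50 bases after the transcription start, were matched for 39 of the 47 genes. At least 1 of the words was found in 17 of these 39 genes (43.6%), compared with 2.6% of the 27025 genes of the promoter table. A word was held by 9 of the 22 matched genes that were higher in CCL21-RANK+ than CCL21+RANK- TECs (40.9%) and by 8 of the 17 not called (47.1%). The CHR element of cell cycle genes, searched as TTTGAA, was in 15.4% of the genes and 20.2% of all genes, and CCAAT was in 64.1% and 41.1%. Short upstream stretches are shown for 2 helicase genes that were higher in CCL21-RANK+ TECs, Mcm5 and Mcm6, and for 2 genes that hold a word but were not called in that comparison, Orc3 and Pola1. They are written 5′ to 3′ on the strand of the gene, with the E2F words in capitals, which overlap at the first position in Mcm5 and in Mcm6.
Mcm5, chr8:75109349-75109398, plus strand: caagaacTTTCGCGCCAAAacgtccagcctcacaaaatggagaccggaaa
Mcm6, chr1:128359736-128359835, minus strand: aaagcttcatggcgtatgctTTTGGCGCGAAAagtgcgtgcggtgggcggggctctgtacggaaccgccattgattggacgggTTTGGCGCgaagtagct
Orc3, chr4:34614963-34615022, minus strand: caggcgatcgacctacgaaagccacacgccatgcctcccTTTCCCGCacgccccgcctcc
Pola1, chrX:93632266-93632315, minus strand: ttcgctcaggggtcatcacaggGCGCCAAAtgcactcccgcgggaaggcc
Counted from the RefSeq start, the Mcm5 words began at -153 and -149, the Mcm6 words at -110, -106, and -47, the Orc3 word at -41, and the Pola1 word at -138. Gene positions given below come from GENCODE, an annotation whose starts can differ from these, as for Mcm5. A match is a run of letters and not a measured binding site.

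Together the 47 genes were expressed at the lowest level in CCL21+RANK- TECs and at higher levels in both other populations. Their summed level was 293.0, 246.3, and 301.8 RPKM in CCL21+RANK-, 472.3, 595.5, and 572.4 RPKM in CCL21-RANK+, and 412.9 and 502.2 RPKM in CCL21-RANK- TECs. The CCL21+RANK- libraries all lay below the libraries of the other populations, whereas the ranges of CCL21-RANK+ and CCL21-RANK- TECs overlapped. The mean sum in CCL21-RANK+ TECs was 1.95-fold that in CCL21+RANK- TECs, and the mean sum in CCL21-RANK- TECs was 1.63-fold. Such sums weigh abundant genes most, and Uhrf1 had the highest mean over all libraries. The median fold change of the 47 genes, from the edgeR fit described below, was 1.57 for CCL21-RANK+ over CCL21+RANK- TECs. For CCL21+RANK- over CCL21-RANK- TECs it was 0.62. In these bulk samples a smaller share of cells in S phase and less RNA of these genes per cell cannot be told apart.

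**Figure D1:**
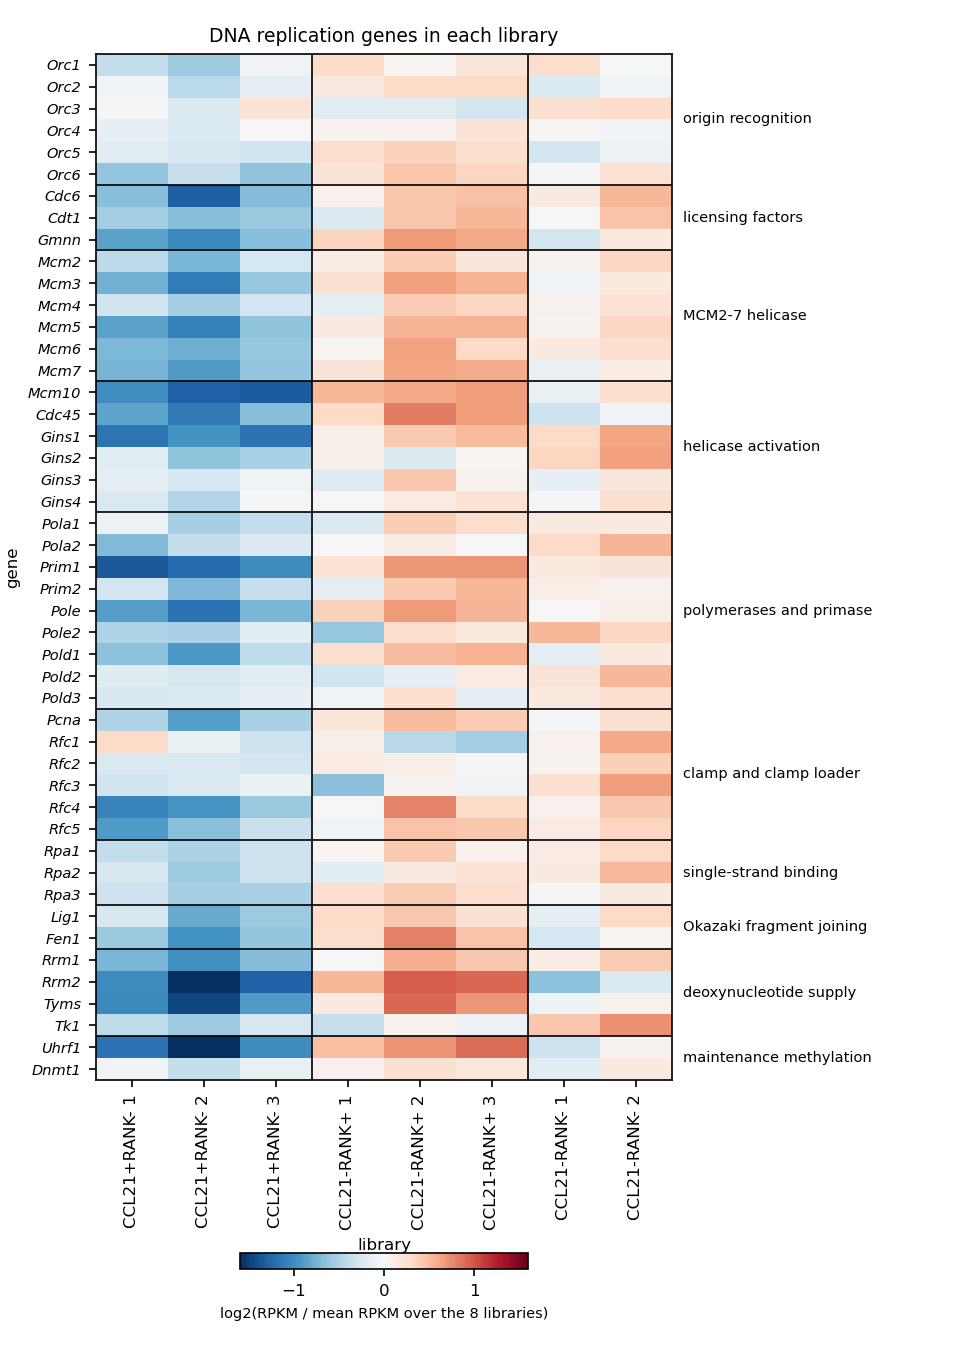
Heat map of the 47 DNA replication genes (rows, by role) in the 8 libraries (columns), coloured by log2 of RPKM over the gene's mean RPKM in the 8 libraries. The 3 CCL21+RANK- columns are mostly blue, with 32 of the 47 genes lowest in replicate 2, whereas Orc3, Rfc1, Rfc3, and Pold2 do not follow the other genes.

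A call required an adjusted p-value under 0.05 from edgeR's quasi-likelihood test over all 21451 genes, a change of more than 1.5-fold, and more than 1 RPKM on average in the higher population. Against CCL21+RANK- TECs, 26 of the 47 genes were higher in CCL21-RANK+ TECs, where 15.4% of all genes tested were called in that direction. None of the 47 was called higher in CCL21+RANK- TECs by edgeR or by DESeq2, against 15.4% of all genes, and 1 of them, Orc3, was lower in CCL21-RANK+ TECs by adjusted p alone, as at an unadjusted p under 0.05. The median log2 fold change of the 47 genes was 0.65 (range -0.38 to 2.01) and that of all genes was 0.11. In 37 genes every CCL21-RANK+ library lay above every CCL21+RANK- library in RPKM. With library totals scaled by TMM, the normalization of edgeR, this held for 30 genes, and 1 gene, Orc3, lay below. The share of all genes that separated in this way was not counted, for this or any other comparison of ranges below. These counts therefore describe the members and do not set them apart from other genes. Against the same TECs, 25 genes were higher in CCL21-RANK- TECs (3.66% of all genes tested), and 0 were lower by edgeR or by DESeq2 (4.35% of all genes) or at an unadjusted p under 0.05. In that comparison the median log2 fold change was 0.69 (range 0.05 to 1.56), and that of all genes was 0.00. These comparisons share the CCL21+RANK- libraries and are not independent of each other. The count of 25 rests on both CCL21-RANK- libraries and fell when either was left out, as did the count over all genes tested. Without 1 of the CCL21+RANK- libraries it was 20, 18, and 20 for replicates 1, 2, and 3. The counts over all genes were then 541, 532, and 666, beside 786 in the full fit. On leaving out each library in turn, the median log2 fold change of the 47 genes in CCL21+RANK- over CCL21-RANK- TECs stayed between -0.78 and -0.63. The count of 26 ranged from 23 to 29 when each library was left out, and Mcm2, Prim2, and Rpa3 were the 3 genes that lost their call in any of these fits.

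**Figure D2:**
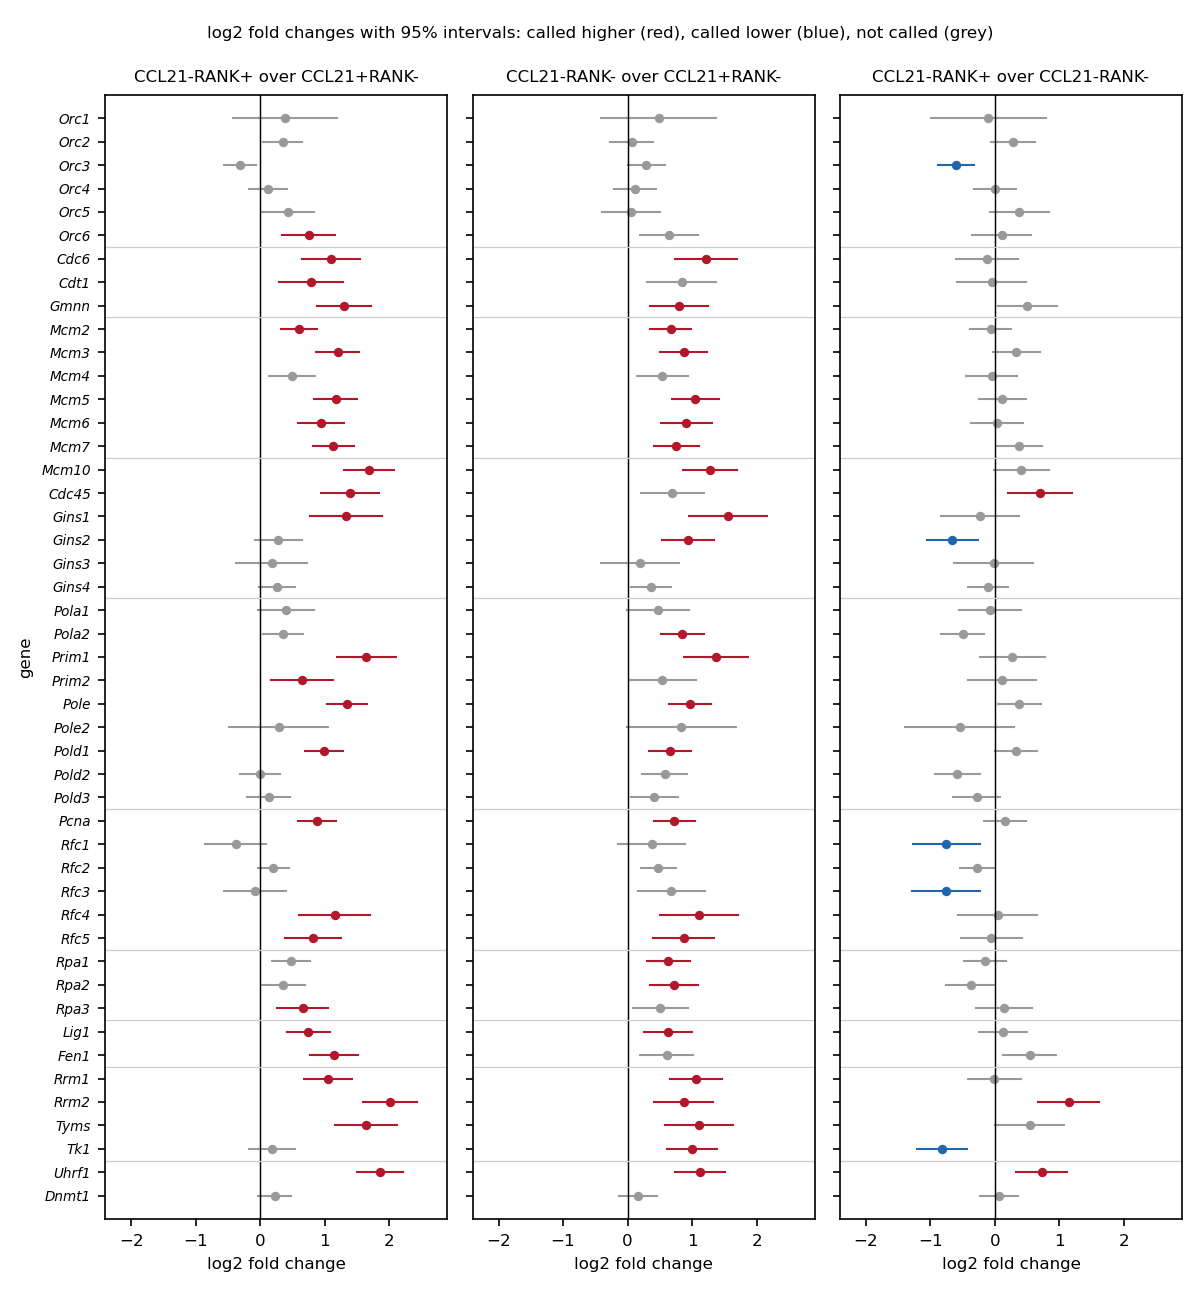
log2 fold changes (points) with 95% intervals (lines) of the 47 genes in the 3 comparisons, from 1 edgeR fit of the 8 libraries. Genes called higher (26, 25, and 3) are red, genes called lower (0, 0, and 5) are blue, and genes not called are grey.

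The 6 subunits of the origin recognition complex, which marks origins, had the smallest ratio of summed levels among the 10 roles, 1.30-fold for CCL21-RANK+ and 1.22-fold for CCL21-RANK- TECs relative to CCL21+RANK- TECs. Orc6 alone among them was higher in CCL21-RANK+ than CCL21+RANK- TECs, and none was called in CCL21-RANK- TECs against the same population. Orc6 was at 2.71, 3.24, and 2.67 RPKM in CCL21+RANK-, 4.81, 5.69, and 5.30 RPKM in CCL21-RANK+, and 4.13 and 4.93 RPKM in CCL21-RANK- TECs. The CCL21+RANK- libraries lay below all others, and the log2 fold change of CCL21-RANK+ TECs was 0.75 (95% interval 0.34 to 1.17, edgeR adjusted p = 0.00701). Orc4, with the smallest difference of the group, was at 1.89, 1.75, and 2.06 RPKM in CCL21+RANK-, 2.15, 2.15, and 2.40 RPKM in CCL21-RANK+, and 2.09 and 2.01 RPKM in CCL21-RANK- TECs, and its log2 fold change was 0.12 (95% interval -0.17 to 0.41, edgeR adjusted p = 0.473). Orc3 was the member of the group with a log2 fold change below 0, -0.32 (95% interval -0.57 to -0.06, edgeR adjusted p = 0.0393), and did not pass the fold threshold. It was at 3.97, 3.47, and 4.73 RPKM in CCL21+RANK-, 3.60, 3.64, and 3.32 RPKM in CCL21-RANK+, and 4.87 and 5.01 RPKM in CCL21-RANK- TECs, so that every CCL21-RANK+ library lay below both CCL21-RANK- libraries. After TMM scaling every CCL21-RANK+ library also lay below every CCL21+RANK- library in Orc3. Orc1, the large ATPase subunit, stayed under 1 RPKM in every library with 44 to 116 counts, so it could not be called. Its log2 fold change in CCL21-RANK+ over CCL21+RANK- TECs had a 95% interval of -0.42 to 1.20 (edgeR adjusted p = 0.398). Every CCL21-RANK+ library nevertheless lay above every CCL21+RANK- library, in RPKM and after TMM scaling. The exons of Orc2 overlap those of Nif3l1 on the opposite strand by 29.8%.

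The licensing factors were all higher in CCL21-RANK+ than CCL21+RANK- TECs. Cdc6, which helps load the helicase, was at 1.56, 1.01, and 1.53 RPKM in CCL21+RANK-, 2.61, 3.38, and 3.44 RPKM in CCL21-RANK+, and 2.76 and 3.61 RPKM in CCL21-RANK- TECs. The ranges of CCL21-RANK+ and CCL21-RANK- TECs overlapped, and both lay above CCL21+RANK- TECs. Their log2 fold changes were 1.10 (95% interval 0.65 to 1.54, edgeR adjusted p = 0.00124) and 1.22 (95% interval 0.74 to 1.70, edgeR adjusted p = 0.00652). Cdt1, the partner of CDC6 in loading, was at 3.73, 3.42, and 3.65 RPKM in CCL21+RANK-, 4.66, 7.48, and 7.94 RPKM in CCL21-RANK+, and 5.46 and 7.51 RPKM in CCL21-RANK- TECs. Cdt1 showed the same order of ranges. Its log2 fold change relative to CCL21+RANK- TECs was 0.79 (95% interval 0.30 to 1.28, edgeR adjusted p = 0.0126) in CCL21-RANK+ TECs and 0.84 (95% interval 0.30 to 1.37, edgeR adjusted p = 0.0515) in CCL21-RANK- TECs, and the latter was not called. Gmnn, which encodes the CDT1 inhibitor geminin, was at 3.60, 3.18, and 4.05 RPKM in CCL21+RANK-, 8.35, 10.4, and 9.95 RPKM in CCL21-RANK+, and 5.32 and 7.23 RPKM in CCL21-RANK- TECs. The 3 populations did not overlap, but Gmnn was not called for CCL21-RANK+ against CCL21-RANK- TECs. It rose by a log2 fold change of 1.30 (95% interval 0.89 to 1.71, edgeR adjusted p = 0.000271) in CCL21-RANK+ TECs and 0.79 (95% interval 0.35 to 1.24, edgeR adjusted p = 0.0322) in CCL21-RANK- TECs.

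Of the 6 subunits of the MCM2-7 helicase, which unwinds DNA at the fork, 5 were higher in CCL21-RANK+ TECs and 5 in CCL21-RANK- TECs, each against CCL21+RANK- TECs. Mcm4 was the exception in both. All 6 had every CCL21-RANK+ library and both CCL21-RANK- libraries above every CCL21+RANK- library, although in Mcm4 CCL21-RANK+ and CCL21+RANK- TECs overlapped after TMM scaling. Mcm3, with the largest log2 fold change of the subunits in CCL21-RANK+ TECs, was at 11.0, 8.6, and 12.3 RPKM in CCL21+RANK-, 22.1, 29.3, and 27.4 RPKM in CCL21-RANK+, and 17.8 and 20.9 RPKM in CCL21-RANK- TECs. In CCL21-RANK+ TECs its log2 fold change was 1.20 (95% interval 0.87 to 1.53, edgeR adjusted p = 0.000107). Mcm5 (chromosome 8, 75109569 to 75128439, plus strand), whose promoter stretch is shown above, was at 10.6, 9.10, and 12.3 RPKM in CCL21+RANK-, 21.2, 28, and 28.3 RPKM in CCL21-RANK+, and 20.0 and 24.3 RPKM in CCL21-RANK- TECs. Its log2 fold change was 1.17 (95% interval 0.84 to 1.5, edgeR adjusted p = 0.000128) in CCL21-RANK+ TECs and 1.05 (95% interval 0.69 to 1.41, edgeR adjusted p = 0.00315) in CCL21-RANK- TECs. Mcm6, with 3 E2F words, was at 10.6, 10.2, and 11.6 RPKM in CCL21+RANK-, 18.1, 27.3, and 21.8 RPKM in CCL21-RANK+, and 19.5 and 21.1 RPKM in CCL21-RANK- TECs. In both genes the CCL21-RANK+ and CCL21-RANK- ranges overlapped. Mcm7 was at 10.1, 9.10, and 11.1 RPKM in CCL21+RANK-, 19.6, 26.4, and 25.6 RPKM in CCL21-RANK+, and 15.6 and 18.5 RPKM in CCL21-RANK- TECs. The CCL21+RANK- libraries were again the lowest. Mcm2, the least abundant subunit, was at 6.42, 5.16, and 7.06 RPKM in CCL21+RANK-, 9.33, 11.4, and 9.73 RPKM in CCL21-RANK+, and 8.92 and 10.8 RPKM in CCL21-RANK- TECs. The log2 fold changes relative to CCL21+RANK- TECs in CCL21-RANK+ TECs were 0.94 for Mcm6, 1.13 for Mcm7, and 0.60 for Mcm2. In CCL21-RANK- TECs they were 0.67 for Mcm2, 0.87 for Mcm3, 0.91 for Mcm6, and 0.76 for Mcm7. Mcm4 was at 12.2, 10.5, and 12.3 RPKM in CCL21+RANK-, 13.7, 20.1, and 19.0 RPKM in CCL21-RANK+, and 16.0 and 17.8 RPKM in CCL21-RANK- TECs, and its log2 fold change of 0.49 (95% interval 0.13 to 0.85, edgeR adjusted p = 0.0266) stayed under the fold threshold. The subunits assemble in equal numbers into a ring, and their mean levels in CCL21-RANK+ TECs ranged from 10.1 RPKM for Mcm2 to 26.3 RPKM for Mcm3.

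Among the 6 genes of helicase activation, Mcm10, Cdc45, and Gins1 were higher in CCL21-RANK+ than CCL21+RANK- TECs. Against the same population, Mcm10, Gins1, and Gins2 were higher in CCL21-RANK- TECs. Mcm10, which acts when the helicase is set in motion, was at 0.745, 0.605, and 0.590 RPKM in CCL21+RANK-, 2.14, 2.26, and 2.36 RPKM in CCL21-RANK+, and 1.36 and 1.79 RPKM in CCL21-RANK- TECs. Mcm10 had a log2 fold change of 1.68 (95% interval 1.29 to 2.07, edgeR adjusted p = 3.5e-05). Cdc45, a part of the active helicase, was at 1.52, 1.23, and 1.69 RPKM in CCL21+RANK-, 3.39, 4.79, and 4.32 RPKM in CCL21-RANK+, and 2.14 and 2.64 RPKM in CCL21-RANK- TECs. In Mcm10 and Cdc45 the 3 populations did not overlap. Cdc45, unlike Mcm10, was called against CCL21-RANK- TECs as well, with a log2 fold change of 0.70 (95% interval 0.20 to 1.20, edgeR adjusted p = 0.0265). That call was lost with the replicate number as a block and when CCL21-RANK+ replicate 2 was left out. It was also lost when either CCL21-RANK- library was left out. The 4 GINS genes, whose products form 1 complex, were called in part, Gins1 in both populations, Gins2 in CCL21-RANK- TECs alone, and Gins3 and Gins4 in neither. Gins1 was at 1.43, 1.65, and 1.41 RPKM in CCL21+RANK-, 3.41, 4.28, and 4.54 RPKM in CCL21-RANK+, and 3.95 and 4.95 RPKM in CCL21-RANK- TECs. Gins1 had a log2 fold change of 1.32 (95% interval 0.76 to 1.88, edgeR adjusted p = 0.00159). Its log2 fold change in CCL21-RANK- TECs was the largest of the 47 genes in that comparison, 1.56 (95% interval 0.95 to 2.17, edgeR adjusted p = 0.00596), and for Mcm10 it was 1.27. Gins2 was at 2.72, 1.97, and 2.15 RPKM in CCL21+RANK-, 3.26, 2.65, and 3.15 RPKM in CCL21-RANK+, and 3.92 and 4.87 RPKM in CCL21-RANK- TECs, with CCL21-RANK- TECs above the rest. Their log2 fold change over CCL21+RANK- TECs was 0.94 (95% interval 0.54 to 1.34, edgeR adjusted p = 0.00928). Gins2 shares 67.3% of its exon length with Gse1 on the opposite strand, and Gse1 had 2187 to 15360 counts against 371 to 1428 for Gins2, so reads of the pair may be split uncertainly if strand was not used in counting. Gins3 was at 1.76, 1.62, and 1.89 RPKM in CCL21+RANK-, 1.70, 2.65, and 2.05 RPKM in CCL21-RANK+, and 1.80 and 2.23 RPKM in CCL21-RANK- TECs. All 3 populations overlapped in RPKM, and the log2 fold change of CCL21-RANK+ over CCL21+RANK- TECs was 0.17 (95% interval -0.37 to 0.72, edgeR adjusted p = 0.578). Gins4 was the most abundant of the 4 at 13.3 to 21.8 RPKM and was not called in any comparison.

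Of the 9 genes of the polymerases and primase, Prim1, Prim2, Pole, and Pold1 were higher in CCL21-RANK+ than CCL21+RANK- TECs. Prim1, Pola2, Pole, and Pold1 were higher in CCL21-RANK- TECs against the same population. Prim1, the catalytic subunit of primase, was at 0.966, 1.03, and 1.21 RPKM in CCL21+RANK-, 2.85, 3.99, and 3.99 RPKM in CCL21-RANK+, and 2.73 and 2.82 RPKM in CCL21-RANK- TECs. Prim1 had a log2 fold change of 1.64 (95% interval 1.18 to 2.10, edgeR adjusted p = 0.000121). Pole, the catalytic subunit of the leading-strand polymerase epsilon, was at 1.43, 1.16, and 1.59 RPKM in CCL21+RANK-, 3.40, 4.22, and 3.83 RPKM in CCL21-RANK+, and 2.63 and 2.80 RPKM in CCL21-RANK- TECs. Pole had a log2 fold change of 1.35 (95% interval 1.04 to 1.65, edgeR adjusted p = 3e-05). Pold1, the catalytic subunit of polymerase delta, was at 13.2, 11.0, and 15.7 RPKM in CCL21+RANK-, 24.9, 29.1, and 30.5 RPKM in CCL21-RANK+, and 18.6 and 23.2 RPKM in CCL21-RANK- TECs. Pold1 had a log2 fold change of 0.98 (95% interval 0.69 to 1.27, edgeR adjusted p = 0.000191). In Prim1, Pole, and Pold1 all libraries of the other populations lay above the CCL21+RANK- libraries, and none of these genes was called for CCL21-RANK+ against CCL21-RANK- TECs. In CCL21-RANK- over CCL21+RANK- TECs their log2 fold changes were 1.37, 0.97, and 0.66. Pold2, an accessory subunit of polymerase delta, was at 15.1, 14.4, and 15.2 RPKM in CCL21+RANK-, 13.8, 15.7, and 18.9 RPKM in CCL21-RANK+, and 19.8 and 24.9 RPKM in CCL21-RANK- TECs, and its log2 fold change of -0.00 (95% interval -0.32 to 0.31, edgeR adjusted p = 0.983) was the smallest of the 9 genes. Pola2, the second subunit of polymerase alpha, was at 2.31, 2.91, and 3.23 RPKM in CCL21+RANK-, 3.76, 4.10, and 3.82 RPKM in CCL21-RANK+, and 4.67 and 5.51 RPKM in CCL21-RANK- TECs. It was highest in CCL21-RANK- TECs, with a log2 fold change of 0.85 (95% interval 0.52 to 1.18, edgeR adjusted p = 0.00618) over CCL21+RANK- TECs. Pole2, Pold3, and Pola1 were called in neither comparison, with log2 fold changes in CCL21-RANK+ relative to CCL21+RANK- TECs of 0.28, 0.13, and 0.40.

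Pcna, the gene of the sliding clamp (chromosome 2, 132249162 to 132253314, minus strand), was at 28.1, 21.5, and 27.6 RPKM in CCL21+RANK-, 45.3, 56.0, and 52.1 RPKM in CCL21-RANK+, and 38.5 and 46.7 RPKM in CCL21-RANK- TECs. The CCL21+RANK- libraries lay below the rest. Pcna rose by a log2 fold change of 0.88 (95% interval 0.59 to 1.18, edgeR adjusted p = 0.000366) in CCL21-RANK+ TECs and 0.73 (95% interval 0.41 to 1.05, edgeR adjusted p = 0.0112) in CCL21-RANK- TECs. The 5 subunits of replication factor C, which opens the clamp around DNA, were called in part, Rfc4 and Rfc5 in both populations and the other 3 in neither. Rfc4, a small subunit of the ring, was at 2.81, 3.05, and 3.89 RPKM in CCL21+RANK-, 5.83, 10.2, and 7.22 RPKM in CCL21-RANK+, and 6.14 and 7.91 RPKM in CCL21-RANK- TECs. Rfc4 had a log2 fold change of 1.15 (95% interval 0.59 to 1.71, edgeR adjusted p = 0.00347). Rfc5, also a small subunit, was at 1.86, 2.2, and 2.73 RPKM in CCL21+RANK-, 3.36, 4.8, and 4.70 RPKM in CCL21-RANK+, and 3.84 and 4.43 RPKM in CCL21-RANK- TECs. Rfc5 had a log2 fold change of 0.82 (95% interval 0.38 to 1.25, edgeR adjusted p = 0.00581). In Rfc4 and Rfc5 all CCL21+RANK- libraries lay below the others, and the log2 fold changes in CCL21-RANK- TECs were 1.11 and 0.87. Rfc3 was at 3.33, 3.54, and 3.85 RPKM in CCL21+RANK-, 2.61, 4.31, and 4.00 RPKM in CCL21-RANK+, and 4.94 and 6.57 RPKM in CCL21-RANK- TECs. The CCL21-RANK+ libraries spanned the range of CCL21+RANK- TECs, and the log2 fold change was -0.08 (95% interval -0.56 to 0.39, edgeR adjusted p = 0.772). Rfc1, the large subunit, was at 5.86, 4.37, and 3.72 RPKM in CCL21+RANK-, 5.07, 3.48, and 3.24 RPKM in CCL21-RANK+, and 5.00 and 7.23 RPKM in CCL21-RANK- TECs. Rfc1 had a log2 fold change of -0.38 (95% interval -0.85 to 0.09, edgeR adjusted p = 0.159). Rfc2 was at 5.19 to 8.30 RPKM and was not called in any comparison.

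Replication protein A coats single-stranded DNA as a trimer. Rpa3, its smallest subunit, was called higher in CCL21-RANK+ TECs, and Rpa1 and Rpa2 were called higher in CCL21-RANK- TECs, each against CCL21+RANK- TECs. Rpa1 was at 8.25, 7.60, and 8.58 RPKM in CCL21+RANK-, 11.0, 14.4, and 11.3 RPKM in CCL21-RANK+, and 11.9 and 13.5 RPKM in CCL21-RANK- TECs. Rpa2 was at 6.36, 5.15, and 6.01 RPKM in CCL21+RANK-, 6.77, 8.40, and 8.92 RPKM in CCL21-RANK+, and 8.44 and 10.9 RPKM in CCL21-RANK- TECs. Rpa3 was at 5.80, 5.07, and 5.09 RPKM in CCL21+RANK-, 8.79, 9.67, and 8.83 RPKM in CCL21-RANK+, and 7.16 and 8.05 RPKM in CCL21-RANK- TECs. In all 3 genes every CCL21-RANK+ and CCL21-RANK- library lay above every CCL21+RANK- library, although CCL21-RANK+ TECs overlapped them in Rpa2 after TMM scaling. In this order, their log2 fold changes in CCL21-RANK+ TECs were 0.48, 0.35, and 0.65, and in CCL21-RANK- TECs 0.63, 0.72, and 0.51. Fen1, the nuclease that trims Okazaki fragments, was at 9.81, 7.57, and 9.65 RPKM in CCL21+RANK-, 18, 25.9, and 20.4 RPKM in CCL21-RANK+, and 12.2 and 15.2 RPKM in CCL21-RANK- TECs. Fen1 had a log2 fold change of 1.14 (95% interval 0.77 to 1.52, edgeR adjusted p = 0.000324). Lig1, the ligase that seals them, was at 11.3, 7.72, and 9.05 RPKM in CCL21+RANK-, 16.7, 18.3, and 16.0 RPKM in CCL21-RANK+, and 12.2 and 16.8 RPKM in CCL21-RANK- TECs. Lig1 had log2 fold changes of 0.74 (95% interval 0.41 to 1.08, edgeR adjusted p = 0.00229) in CCL21-RANK+ TECs and 0.62 (95% interval 0.25 to 0.99, edgeR adjusted p = 0.039) in CCL21-RANK- TECs. The call of Lig1 in CCL21-RANK- TECs, like that of Rpa1, was lost with DESeq2's size factors, with its Wald test, and with at least 10 counts in every library. Fen1 and Lig1 were both lowest in the CCL21+RANK- libraries.

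The genes of deoxynucleotide supply held the largest difference among the 47 genes. Rrm2, the regulated subunit of ribonucleotide reductase (chromosome 12, 24708241 to 24714146, plus strand), was at 7.81, 5.00, and 6.47 RPKM in CCL21+RANK-, 22.8, 30.9, and 30.0 RPKM in CCL21-RANK+, and 10.1 and 13.5 RPKM in CCL21-RANK- TECs. The 3 populations did not overlap. Relative to CCL21+RANK- TECs, its log2 fold change was 2.01 (95% interval 1.59 to 2.43, edgeR adjusted p = 1.87e-05) in CCL21-RANK+ TECs and 0.87 (95% interval 0.41 to 1.32, edgeR adjusted p = 0.0237) in CCL21-RANK- TECs. Rrm1, the large subunit of the same enzyme, was at 4.90, 4.13, and 5.03 RPKM in CCL21+RANK-, 8.18, 12.2, and 11.0 RPKM in CCL21-RANK+, and 8.83 and 10.8 RPKM in CCL21-RANK- TECs. Rrm1 had a smaller log2 fold change of 1.05 (95% interval 0.69 to 1.42, edgeR adjusted p = 0.000504). Tyms, the thymidylate synthase that makes dTMP anew, was at 1.86, 1.39, and 2.03 RPKM in CCL21+RANK-, 4.19, 7.20, and 6.19 RPKM in CCL21-RANK+, and 3.57 and 3.94 RPKM in CCL21-RANK- TECs. Tyms had a log2 fold change of 1.64 (95% interval 1.15 to 2.13, edgeR adjusted p = 0.000177). The corresponding log2 fold changes in CCL21-RANK- TECs were 1.06 for Rrm1 and 1.10 for Tyms. Tk1, the thymidine kinase that salvages thymidine into the same product, was at 2.45, 2.17, and 2.68 RPKM in CCL21+RANK-, 2.5, 3.37, and 3.03 RPKM in CCL21-RANK+, and 4.35 and 5.36 RPKM in CCL21-RANK- TECs. Both CCL21-RANK- libraries lay above all others. The log2 fold change relative to CCL21+RANK- TECs was 0.99 (95% interval 0.61 to 1.38, edgeR adjusted p = 0.00608) in CCL21-RANK- TECs and 0.18 (95% interval -0.18 to 0.53, edgeR adjusted p = 0.373) in CCL21-RANK+ TECs.

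Uhrf1 and Dnmt1 act together to copy DNA methylation after replication and differed in size of change. Uhrf1, which recognizes hemimethylated DNA and recruits DNMT1 (chromosome 17, 56303321 to 56323486, plus strand), was the most abundant of the 47 genes per length in CCL21-RANK+ TECs, whereas Pcna exceeded it in both other populations. Uhrf1 was at 17.6, 13.0, and 19.8 RPKM in CCL21+RANK-, 55.8, 65.6, and 73.9 RPKM in CCL21-RANK+, and 31.7 and 41.5 RPKM in CCL21-RANK- TECs, with no overlap among the 3 populations. Uhrf1 had log2 fold changes of 1.85 (95% interval 1.49 to 2.21, edgeR adjusted p = 1.08e-05) in CCL21-RANK+ TECs and 1.13 (95% interval 0.74 to 1.51, edgeR adjusted p = 0.0031) in CCL21-RANK- TECs. Dnmt1, the maintenance methyltransferase, was at 19.0, 14.9, and 17.9 RPKM in CCL21+RANK-, 20.4, 23.1, and 21.8 RPKM in CCL21-RANK+, and 17.2 and 21.5 RPKM in CCL21-RANK- TECs. Every CCL21-RANK+ library lay above every CCL21+RANK- library, although not after TMM scaling, and the log2 fold change was 0.22 (95% interval -0.04 to 0.48, edgeR adjusted p = 0.135).

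**Figure D3:**
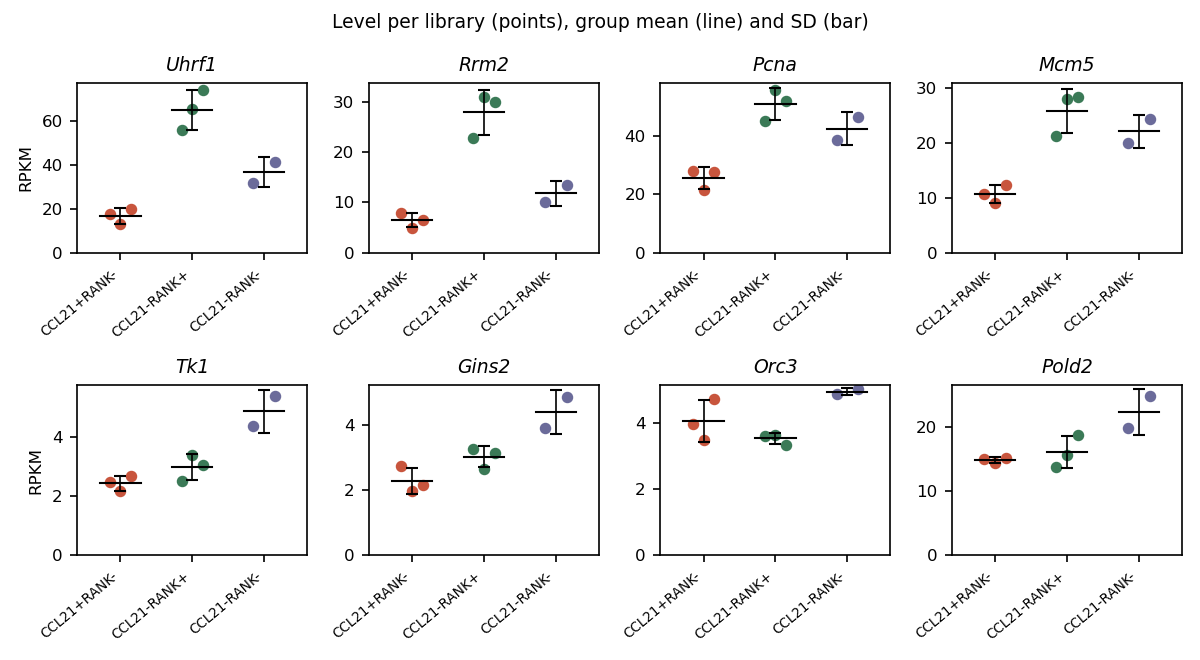
RPKM (y axis) of 8 of the genes in each library (points) by population (x axis), with the mean (line) and SD (bar) over 3, 3, and 2 libraries. Uhrf1 and Rrm2 separate all 3 populations, Pcna and Mcm5 are low in CCL21+RANK- TECs alone, and Tk1, Gins2, Orc3, and Pold2 are highest in CCL21-RANK- TECs.

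CCL21-RANK+ TECs were also compared with CCL21-RANK- TECs, and here the 47 genes were near balance. Of them, 3 genes (Rrm2, Uhrf1, and Cdc45) were higher in CCL21-RANK+ TECs, where 14.4% of all genes tested were called in that direction. The other 5 genes called (Tk1, Rfc3, Rfc1, Gins2, and Orc3) were higher in CCL21-RANK- TECs, where 15.1% of all genes were called. The median log2 fold change was 0.01 (range -0.82 to 1.14) and that of all genes was 0.06. Rrm2 had the largest difference in favour of CCL21-RANK+ TECs, with a log2 fold change of 1.14 (95% interval 0.67 to 1.61, edgeR adjusted p = 0.00164), followed by Uhrf1 with 0.73 (95% interval 0.33 to 1.12, edgeR adjusted p = 0.0076). Toward CCL21-RANK- TECs, log2 fold changes were 0.82 (95% interval 0.43 to 1.20, edgeR adjusted p = 0.00365) for Tk1 and 0.76 (95% interval 0.24 to 1.28, edgeR adjusted p = 0.0224) for Rfc3. They were 0.75 (95% interval 0.23 to 1.28, edgeR adjusted p = 0.0229) for Rfc1, 0.66 (95% interval 0.26 to 1.06, edgeR adjusted p = 0.0128) for Gins2, and 0.61 (95% interval 0.33 to 0.89, edgeR adjusted p = 0.00304) for Orc3. The replicate ranges of Rfc1 overlapped in RPKM but not after TMM scaling, and those of the other 7 genes did not overlap by either. Rrm2 and Tk1 were the 2 genes that kept their call when each library was left out in turn. Without CCL21-RANK+ replicate 1 the counts of 3 and 5 became 6 and 3. The count of 3 was 1 when CCL21-RANK- replicate 1 was left out, and the count of 5 was 2 when its replicate 2 was left out. This comparison also moved with the scaling. DESeq2's size factors shifted the median of all genes from 0.06 to 0.20 and that of the 47 genes from 0.01 to 0.14. The 47 genes lay below the median of all genes under both scalings. With at least 10 counts in every library they lay above it, at 0.21 beside 0.04 for all genes. With DESeq2's size factors the counts became 6 and 2, with Orc3, Gins2, and Rfc1 no longer called.

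A further list of 39 replication genes outside the 47, fixed by role, gave a like picture with named exceptions. Of these, 20 (51.3%) were higher in CCL21-RANK+ than CCL21+RANK- TECs and 2 (5.13%) were lower, beside 15.4% of all genes in each direction. Their median log2 fold change was 0.67, and that of all genes 0.11. Against the same TECs, 13 (33.3%) were higher in CCL21-RANK- TECs, beside 3.66% of all genes. In the other direction, where 4.35% of all genes were called, there were 0 by edgeR, by DESeq2, or at an unadjusted p under 0.05. The count of 13 was 6 when CCL21+RANK- replicate 2 or CCL21-RANK- replicate 1 was left out, and 1 when CCL21-RANK- replicate 2 was. The largest change was in Pclaf, a PCNA-binding factor, at 1.96, 2.30, and 2.49 RPKM in CCL21+RANK-, 8.36, 14.4, and 13.3 RPKM in CCL21-RANK+, and 6.24 and 6.92 RPKM in CCL21-RANK- TECs. Pclaf had a log2 fold change of 2.31 (95% interval 1.82 to 2.80, edgeR adjusted p = 2.02e-05). Asf1b, a histone chaperone, and Chtf18, a clamp loader subunit for sister chromatid cohesion, had log2 fold changes of 2.05 and 1.75. Subunits of ribonuclease H2, which removes ribonucleotides from DNA, moved in opposite directions. Rnaseh2b was at 1.12, 1.5, and 1.40 RPKM in CCL21+RANK-, 7.69, 6.85, and 6.66 RPKM in CCL21-RANK+, and 1.75 and 1.84 RPKM in CCL21-RANK- TECs. In CCL21-RANK+ TECs it was higher by a log2 fold change of 2.27 (95% interval 1.94 to 2.61, edgeR adjusted p = 2.16e-06). Rnaseh2a, the catalytic subunit, was at 13.7, 10.5, and 15 RPKM in CCL21+RANK-, 7.86, 8.33, and 8.27 RPKM in CCL21-RANK+, and 15.9 and 20.9 RPKM in CCL21-RANK- TECs. It was lower in CCL21-RANK+ than CCL21+RANK- TECs, with -0.79 (95% interval -1.06 to -0.51, edgeR adjusted p = 0.000499). Mcm9, a relative of the MCM2-7 subunits with a role in recombination, was at 2.17, 2.10, and 2.82 RPKM in CCL21+RANK-, 1.74, 1.47, and 1.87 RPKM in CCL21-RANK+, and 2.51 and 2.98 RPKM in CCL21-RANK- TECs. It was lower too, with -0.60 (95% interval -0.89 to -0.30, edgeR adjusted p = 0.0037), although 1 of these 2 lower calls was left with DESeq2's size factors. Among the genes higher in CCL21-RANK- than CCL21+RANK- TECs, Dctd, a dCMP deaminase, had the largest log2 fold change of 2.05, ahead of Pclaf with 1.55, the nuclease and helicase gene Dna2 with 1.38, and the fork protector gene Tipin with 1.16. Of the 39 genes, 5 (12.8%) were higher and 4 (10.3%) lower in CCL21-RANK+ than CCL21-RANK- TECs, beside 14.4% and 15.1% of all genes, and the counts became 9 and 2 with DESeq2's size factors.

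Of 13 genes of E2F factors, their partners, and pocket proteins, 5 (38.5%) were higher in CCL21-RANK+ than CCL21+RANK- TECs (E2f2, E2f1, E2f7, Rb1, and Tfdp1) and 2 (15.4%) were lower (Tfdp2 and E2f6), beside 15.4% of all genes called in each direction. The activator E2f2 was at 1.21, 1.23, and 1.48 RPKM in CCL21+RANK-, 9.10, 6.56, and 9.01 RPKM in CCL21-RANK+, and 1.49 and 1.47 RPKM in CCL21-RANK- TECs. CCL21-RANK+ TECs stood apart, with a log2 fold change of 2.53 (95% interval 2.2 to 2.87, edgeR adjusted p = 1.36e-06) against CCL21+RANK- TECs and 2.35 (95% interval 1.96 to 2.73, edgeR adjusted p = 5.13e-06) against CCL21-RANK- TECs. E2f1, also an activator, was at 2.41, 1.36, and 2.10 RPKM in CCL21+RANK-, 5.45, 5.69, and 6.77 RPKM in CCL21-RANK+, and 3.03 and 3.05 RPKM in CCL21-RANK- TECs. E2f1 had a log2 fold change of 1.5 (95% interval 1.04 to 1.96, edgeR adjusted p = 0.000221). E2f7, a repressor that is itself induced in S phase, was at 1.5, 1.62, and 2.22 RPKM in CCL21+RANK-, 3.98, 4.85, and 5.73 RPKM in CCL21-RANK+, and 6.11 and 7.02 RPKM in CCL21-RANK- TECs. Its CCL21-RANK- libraries were the highest, with a log2 fold change of 1.89 (95% interval 1.47 to 2.31, edgeR adjusted p = 0.000386) over CCL21+RANK- TECs. The dimer partner Tfdp1 was at 36.6, 32.2, and 30.3 RPKM in CCL21+RANK-, 63.3, 59.9, and 55.4 RPKM in CCL21-RANK+, and 24.4 and 26.5 RPKM in CCL21-RANK- TECs. Tfdp1 was thus highest in CCL21-RANK+ and lowest in CCL21-RANK- TECs. Its relative Tfdp2 was at 6.71, 6.15, and 6.68 RPKM in CCL21+RANK-, 2.21, 2.67, and 2.46 RPKM in CCL21-RANK+, and 5.87 and 6.39 RPKM in CCL21-RANK- TECs. CCL21-RANK+ TECs were the lowest here, with a log2 fold change of -1.53 (95% interval -1.79 to -1.27, edgeR adjusted p = 5.02e-06). The repressor E2f6 was at 3.11, 2.6, and 3.22 RPKM in CCL21+RANK-, 1.14, 1.54, and 1.08 RPKM in CCL21-RANK+, and 3.18 and 3.52 RPKM in CCL21-RANK- TECs. E2f6 too was lowest in CCL21-RANK+ TECs, with -1.36 (95% interval -1.76 to -0.95, edgeR adjusted p = 0.000172). The pocket protein gene Rb1 had a log2 fold change of 0.73, and E2f8 was the other gene higher in CCL21-RANK- than CCL21+RANK- TECs, with 0.72 (95% interval 0.39 to 1.04, edgeR adjusted p = 0.0129). E2f7 and E2f8 were 15.4% of the list, beside 3.66% of all genes. E2f3, E2f6, and Tfdp2 were lower in CCL21-RANK+ than CCL21-RANK- TECs, and E2f1, E2f2, Tfdp1, and Rb1 were higher. These were 23.1% and 30.8% of the 13 genes, beside 15.1% and 14.4% of all genes.

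Genes of mitosis, the later phase of the same cycle, were measured for comparison. All 20 listed genes were higher in CCL21-RANK+ than CCL21+RANK- TECs, beside 15.4% of all genes, with a median log2 fold change of 1.84 beside 0.65 in the 47 replication genes and 0.11 in all genes. In CCL21-RANK- TECs 18 were higher than in CCL21+RANK- TECs, beside 3.66% of all genes, with a median of 1.43. The exceptions in the latter were the proliferation marker Mki67, at 6.05, 6.04, and 3.88 RPKM in CCL21+RANK-, 18.7, 9.41, and 9.58 RPKM in CCL21-RANK+, and 4.17 and 11.4 RPKM in CCL21-RANK- TECs, and the kinetochore motor gene Cenpe. The largest log2 fold changes relative to CCL21+RANK- TECs were in the centromeric histone gene Cenpa (2.44), the checkpoint kinase gene Bub1 (2.41), the mitotic kinase gene Cdk1 (2.41), and the spindle kinase gene Aurka (2.29). Cdk1 was at 1.6, 2.02, and 1.92 RPKM in CCL21+RANK-, 7.81, 12.7, and 11.4 RPKM in CCL21-RANK+, and 4.92 and 6.53 RPKM in CCL21-RANK- TECs. Over CCL21-RANK- TECs, 5 of the 20 genes (25%) were higher in CCL21-RANK+ TECs, beside 14.4% of all genes. In the other direction, where 15.1% of all genes were called, there were 0 by edgeR, by DESeq2, or at an unadjusted p under 0.05. The count of 5 was 10 when CCL21-RANK+ replicate 1 was left out, 0 when its replicate 2 was, and 1 when its replicate 3 was. It was 0 when CCL21-RANK- replicate 1 was left out and 2 when its replicate 2 was.

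Markers of other cells were measured beside these genes. The 4 parathyroid markers, led by Chga, summed to 7122, 1750, and 1955 RPKM in CCL21+RANK-, 24.9, 11.1, and 12.0 RPKM in CCL21-RANK+, and 23.8 and 21.6 RPKM in CCL21-RANK- TECs. They were thus high in the population with the lowest replication sum, and highest in its replicate 1. Without that library 26 genes were still called higher in CCL21-RANK+ than CCL21+RANK- TECs and 20 in CCL21-RANK- TECs. The other CCL21+RANK- libraries carry these markers too, and their part in the low level was not tested. The 14 thymocyte markers, led by Rag1, summed to 14.5, 6.27, and 8.18 RPKM in CCL21+RANK-, 34.8, 15.4, and 24.9 RPKM in CCL21-RANK+, and 4.62 and 4.00 RPKM in CCL21-RANK- TECs. Ptprc, the gene for CD45, was at 0.0351 to 0.576 RPKM. The thymocyte sums were highest in CCL21-RANK+ TECs and lowest in CCL21-RANK- TECs. The 7 mesenchyme markers, led by Col1a1, summed to 2.10 to 3.31 RPKM in CCL21+RANK-, 25.1 to 49.1 RPKM in CCL21-RANK+, and 2.00 and 3.59 RPKM in CCL21-RANK- TECs, with Pdgfra at 0.262 RPKM or less in every library. These markers did not all move the same way. Against CCL21+RANK- TECs, 4 of the 7 were called higher in CCL21-RANK+ TECs, beside 15.4% of all genes, and 2 were lower by edgeR adjusted p alone. Against CCL21-RANK- TECs, 4 were called higher, beside 14.4% of all genes, and 1 was lower by adjusted p alone. The 5 endothelial markers, led by Tek, summed to 1.90 to 4.20 RPKM in CCL21-RANK+ TECs and to 0.130 to 0.467 RPKM in the other libraries. The 6 erythroid markers, led by Hbb-bs, summed to 6.61, 164.0, and 59.4 RPKM in CCL21+RANK-, 184.4, 285.4, and 300.3 RPKM in CCL21-RANK+, and 452.8 and 57.1 RPKM in CCL21-RANK- TECs. The part of thymocyte, mesenchymal, endothelial, and erythroid RNA in the higher level of CCL21-RANK+ TECs was not tested.

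**Figure D4:**
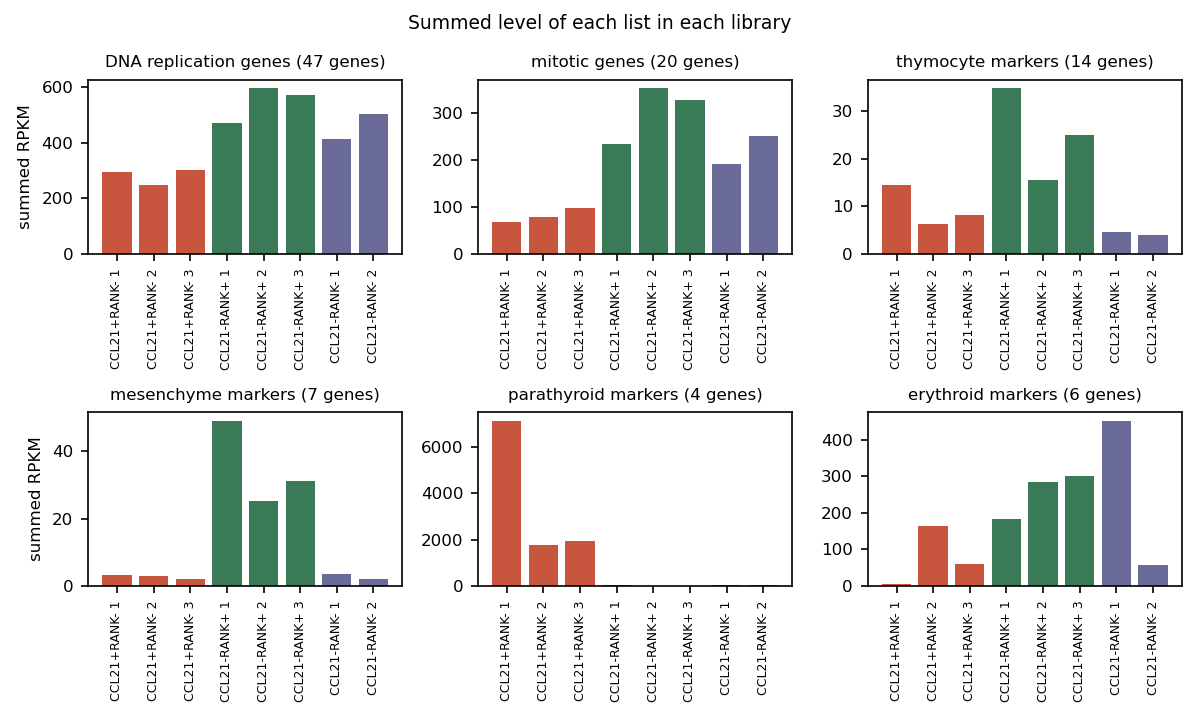
Summed RPKM (y axis) of 6 gene lists in each of the 8 libraries (x axis), coloured by population. The replication and mitotic sums are lowest in the 3 CCL21+RANK- libraries, where the parathyroid sum is highest, and the thymocyte sum is lowest in the CCL21-RANK- libraries.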

How the data were processed

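RNA-sequencing of 8 libraries of sorted E17 TECs was analysed from 1 table of expected counts per gene, which the authors deposited without normalization. RSEM, which divides a read that matches several genes among them, gave values of which 4.47% to 5.94% per library were not whole, and these were rounded for the tests. Per the labels, the processing notes name bcl2fastq 2.20, Trimmomatic, STAR 2.5.1, and RSEM 1.3.1 with the mm10 build. The labels name a NEBNext Ultra II Directional kit and the methods a TruSeq Stranded Total RNA kit, and the strand setting used in counting is not given in the sources used here. All 55450 identifiers matched GENCODE M21 (GRCm38), which supplied positions and exon lengths.

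Differences were tested by quasi-likelihood F tests in edgeR 4.0.16 (R 4.3.3, TMM, filterByExpr, Benjamini-Hochberg adjustment over 21451 genes) in a single fit of all 8 libraries with group means. Fold changes, their 95% intervals, and adjusted p-values came from this fit. RPKM was computed from library totals and the summed exon length, and the noncoding genes Gm26917 and Gm42418 took 6.89% to 19.4% and 1.47% to 10.7% of each total, which lowers the RPKM of other genes. Replicate libraries differed beyond counting noise (common biological coefficient of variation 0.326), so no pair was merged. The fit was first tested on simulated counts with the depth of these libraries, and no result here rests on that check, whose outcome is not given. DESeq2 1.42.0 served as an alternative. All 47 genes could be named, with the level in every library given for the genes of largest and smallest change in each role and for those called for CCL21-RANK- against CCL21+RANK- TECs. Of the other lists, up to 4 genes of largest change and those called against most of their list were named. The members and lists were chosen with earlier results of these data known. Where Chtf8 had 2 identifiers the one with more counts was used. Promoters came from RefSeq. Figures were drawn with matplotlib.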

Additional observations from a re-analysis of the deposited data

How the results depend on the processing

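The 26 genes with a higher call in CCL21-RANK+ than CCL21+RANK- TECs were all called under every other setting run (DESeq2's size factors or upper-quartile scaling, DESeq2's Wald test, other filters on low counts, only the libraries compared, other call thresholds or RPKM scaling, and leaving out Gm26917 and Gm42418), with counts of 26 to 28 and medians up to 0.79 with at least 10 counts in every library. Leaving out each library gave counts of 23 to 29 and medians from 0.58 to 0.80. By adjusted p alone 1 gene was lower. The 25 genes higher in CCL21-RANK- TECs ranged from 5 to 30 on leaving out each library and from 24 to 29 otherwise, with Lig1 and Rpa1 lost under DESeq2's size factors, its Wald test, and at least 10 counts in every library. Leaving out 1 of the 2 CCL21-RANK- libraries assumes that the lone library varies like the other groups. The median log2 fold change of CCL21+RANK- over CCL21-RANK- TECs stayed between -0.78 and -0.63 on leaving out each library.

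Between CCL21-RANK+ and CCL21-RANK- TECs the counts of 3 higher and 5 lower were 6 and 2 with DESeq2's size factors and with its Wald test (median 0.14), 6 and 3 with upper-quartile scaling, and 7 and 1 with at least 10 counts in every library (median 0.21). Leaving out each library gave 1 to 6 and 2 to 5, with medians from -0.14 to 0.18. No log2 fold change of a called gene reversed. The other replication genes lower in CCL21-RANK+ than CCL21+RANK- TECs were 2, and 1 under either scaling, the Wald test, no filter, at least 10 counts, or without Gm26917 and Gm42418, and 1 to 2 on leaving out each library. Those higher in CCL21-RANK+ than CCL21-RANK- TECs were 5, and 9 under either scaling, the Wald test, no filter, or adjusted p alone, 10 with at least 10 counts, 8 without Gm26917 and Gm42418, and 3 to 8 on leaving out each library. Those lower were 4, and 2 under either scaling, the Wald test, or at least 10 counts, and 2 to 6 on leaving out each library. Those higher in CCL21-RANK- than CCL21+RANK- TECs were 1 to 15 on leaving out each library. Mitotic genes higher in CCL21-RANK+ than CCL21-RANK- TECs were 8 under either scaling, the Wald test, or no filter, 9 with at least 10 counts, 3 with only the libraries compared, and 0 to 10 on leaving out each library. Of the E2F list, 5 genes were higher in CCL21-RANK- than CCL21-RANK+ TECs by adjusted p alone. On leaving out each library, 2 to 4 of that list were higher in CCL21-RANK+ than CCL21-RANK- TECs, and 1 to 2 were higher in CCL21-RANK- than CCL21+RANK- TECs. The causes of these changes were not tested, except that scaling shifts every fold change of a comparison. No filter moved the median of all genes to 0.40 for CCL21-RANK+ over CCL21+RANK- and to 0.38 over CCL21-RANK- TECs, since low genes were added.

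The libraries carry replicate numbers, but nothing states that a number marks shared embryos. Deviations from the group means correlated at 0.126, 0.0485, and 0.0707 in the same-numbered pairs of CCL21+RANK- and CCL21-RANK+ TECs, where each library correlated best with its own number. In same-numbered pairs with CCL21-RANK- TECs they correlated at -0.117 to -0.0411. With 2 libraries in that group the deviations mirror each other, so these values say little about pairing. The numbers were not taken as pairs because no source states it, and the correlations do not settle it. With the number as a replicate block, 26 genes were higher in CCL21-RANK+ than CCL21+RANK- TECs and 26 in CCL21-RANK- TECs, of which 24 were shared with the fit without the block and Lig1 was lost. Over CCL21-RANK- TECs, Cdc45 was no longer called, Pold2 was called lower, and the mitotic count was 3.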

Other observations

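Single libraries held the extremes of the replication genes. CCL21-RANK+ replicate 2 was the highest of the 8 libraries in RPKM in 24 of the 47 genes, CCL21-RANK- replicate 2 in 12, CCL21-RANK+ replicate 3 in 9, and no CCL21+RANK- library in any. CCL21+RANK- replicate 2 was the lowest in 32 genes. That library also had the lowest TMM factor, 0.900, and the largest share of Gm42418, 10.7%, which lower its RPKM in all genes. These counts were not repeated after TMM scaling. By group means, 33 genes were ordered CCL21-RANK+, CCL21-RANK-, CCL21+RANK- from high to low, 12 had CCL21-RANK- TECs highest and CCL21+RANK- TECs lowest, and in 2, Orc3 and Rfc1, CCL21-RANK+ TECs were lowest.

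Several members overlap other genes on the opposite strand. Fen1 shares 78.8% of its exon length with Gm10143, which had 0 to 10 counts, Rfc2 shares 15.1% with Lat2, and Rfc4 shares 12.7% with Eif4a2, which had 5549 to 13328 counts. Pole2 shares 8.50% with Gm49384 on the same strand. The pseudogene Pcna-ps2 had 5 to 20 counts beside 2371 to 8023 for Pcna.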
